A study of Mus musculus with 12 samples.

Results

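Genes that mark lymphatic, venous and arterial endothelium were followed through ribosome-bound mRNA of mouse melanomas. The set was Prox1, Nr2f2, Lyve1, Pdpn, Reln, Mmrn1, Lrg1 and Bmx, taken by symbol, 8 of the 24421 genes of the count table. The tumours were grown subcutaneously for 12 days from B16F10 melanoma cells, described as highly metastatic (7 libraries), or from B16F0 cells, described as poorly metastatic (5 libraries). Hosts of both groups were C57BL/6 mice of the genotype Rpl22fl/flHA;Cdh5(PAC)-CreERT2 and all received tamoxifen, which switches on an HA-tagged ribosomal protein in cells where the Cdh5 promoter drives Cre recombinase. Cdh5 encodes VE-cadherin, which blood and lymphatic endothelium both make, so the tag does not choose between them by design. No untagged control and no unprecipitated tumour RNA was used here, and the labels do not give the age of the mice or say whether libraries of a group came from separate animals. P-values therefore measure the spread between these libraries only.

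Lymphatic vessels arise mainly from embryonic veins. The transcription factors Sox18 and Nr2f2 (COUP-TFII) switch on Prox1 in venous cells, and Prox1 then sets and keeps lymphatic identity, including the receptor Flt4 (VEGFR-3) for the growth factor Vegfc. Nr2f2 also holds venous identity by keeping Notch signalling, the arterial programme, low. In and around tumours, lymphatic vessels are a known route of spread to lymph nodes, while most of the vessels inside a tumour are blood vessels.

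Promoter windows of 250 bases, upstream of a start listed by RefSeq, are shown for the 2 transcription factors of that switch, Prox1 and Nr2f2, and for Pdpn, the member that fell as the blood endothelial score described further on rose, a call lost under many alternatives. They come from RefSeq (build GRCm38.p6), lie on the minus strand and are written 5′ to 3′ along the gene. Prox1 is at chr1:190170828-190171077 (the first of 2 listed starts), Nr2f2 at chr7:70366747-70366996 and Pdpn at chr4:143299565-143299814. The Pdpn window adjoins the gene as annotated by GENCODE, while those of Prox1 and Nr2f2 start a short way outside it, and the bases just after their listed starts were not found in a GENCODE transcript. Capitals mark GGAA or its reverse complement TTCC, the core that ETS factors such as the endothelial factor Erg recognise.
Prox1: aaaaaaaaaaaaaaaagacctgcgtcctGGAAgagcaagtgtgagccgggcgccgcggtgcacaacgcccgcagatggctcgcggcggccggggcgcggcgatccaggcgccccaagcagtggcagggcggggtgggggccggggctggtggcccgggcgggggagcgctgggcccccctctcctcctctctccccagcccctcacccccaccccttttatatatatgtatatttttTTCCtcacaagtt
Nr2f2: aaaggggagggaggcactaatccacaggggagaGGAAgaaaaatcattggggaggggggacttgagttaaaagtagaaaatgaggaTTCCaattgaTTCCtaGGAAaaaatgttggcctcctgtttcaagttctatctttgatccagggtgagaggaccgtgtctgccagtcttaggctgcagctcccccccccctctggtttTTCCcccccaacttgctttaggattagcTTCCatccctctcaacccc
Pdpn: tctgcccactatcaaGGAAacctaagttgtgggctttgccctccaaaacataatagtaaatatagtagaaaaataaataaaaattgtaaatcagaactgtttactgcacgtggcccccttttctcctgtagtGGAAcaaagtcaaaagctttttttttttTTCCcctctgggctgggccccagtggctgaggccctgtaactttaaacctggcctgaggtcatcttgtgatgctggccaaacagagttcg
The Prox1 window holds 2 such matches, the Nr2f2 window 6 and the Pdpn window 3, and 93.4% of 32851 mouse promoters of this length hold at least 1. The Pdpn window also holds 1 AGGTCA on either strand, the half-site of nuclear receptors, found in 14% of promoters, and the other 2 windows hold none. GATAA, the core read by GATA factors, was in none of the 3 windows and in 22.6% of promoters, with both strands searched. Of the 8 members 7 had a promoter entry, and Lyve1 had none.

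Library totals ran from 5322510 to 20569186 counts in B16F10 tumours and from 10753106 to 17381336 counts in B16F0 tumours, on sequencing lanes 1, 2 and 6 with both lines on each. Levels are CPM, read counts scaled to a common library size with TMM factors. Blood endothelial content was read from Cdh5 and Pecam1, the genes of VE-cadherin and of the junction protein CD31. Their mean log2 CPM, called the blood endothelial score, was 7.45 ± 1.11 in B16F10 and 7.55 ± 1.14 in B16F0 libraries (SD, n = 7 and 5), a difference of -0.10 (exact permutation test, two-sided p = 0.874, and p = 0.861 within lanes). Because lymphatic endothelium makes VE-cadherin too, this score does not by itself separate it from blood endothelium. A set of 3 libraries stood far above the others, B16F10 replicates 4 and 5 at 9.31 and 8.70 and B16F0 replicate 3 at 9.47, with the remaining 9 between 6.30 and 7.45. The library names of lanes 1 and 2 carry a 6-digit prefix, which the labels do not explain and the lane 6 names lack. After the prefix comes a letter, M in B16F10 replicate 2 and B16F0 replicate 3 and F in the others. This letter was not used in any fit. B16F10 replicate 4 and B16F0 replicate 3, the 2 highest in score, share a prefix, as do B16F10 replicate 3 and B16F0 replicate 2, and B16F10 replicates 1 and 2. In bulk libraries fewer cells of a type and less RNA per cell cannot be told apart. Markers of other cells were present as well: melanocytic genes, which mark the tumour cells, summed to 10250 to 22254 CPM in B16F10 and 12528 to 22319 CPM in B16F0 libraries. Macrophage genes summed to 56.3 to 284 CPM in B16F10 and 92.2 to 304 CPM in B16F0 libraries. Ribosomal precursor RNA (Rn45s) took 31.4% of the counts of B16F10 replicate 5 and 8.91% of those of B16F0 replicate 5.

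Levels per length put Pdpn first among the members, at a mean of 16.3 CPM per kilobase of exon over the 12 libraries. Nr2f2 followed at 4.23, Lyve1 at 2.76, Lrg1 at 1.21 and Prox1 at 1.12 CPM per kilobase. Mmrn1 stood at 0.554, Bmx at 0.152 and Reln at 0.119 CPM per kilobase. All 8 lay below Pecam1 at 34.8 and Cdh5 at 63.6 CPM per kilobase. Lyve1, Reln, Lrg1, Mmrn1 and Bmx each ranged 16.9-fold or more between libraries, so their places in this order are uncertain.

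**Figure D1:**
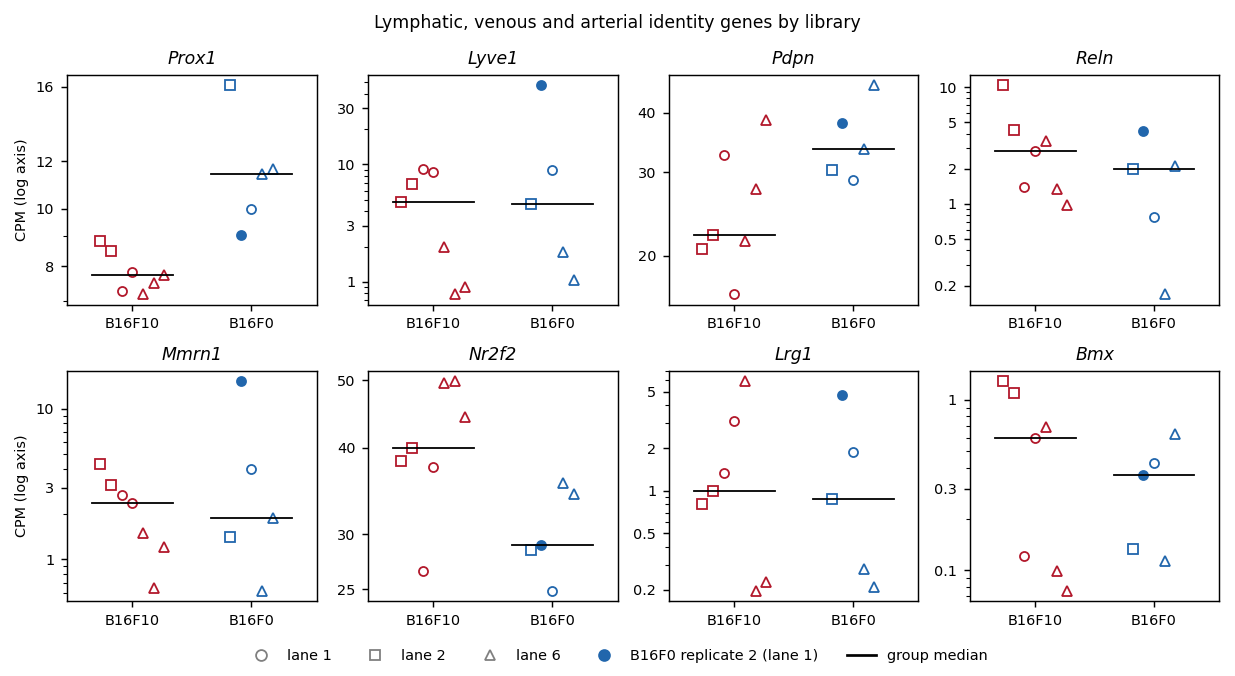
Level of the 8 members in CPM (log axis, its own range for each gene) in every B16F10 and B16F0 library. Symbols give the lane, the filled point is B16F0 replicate 2 and the bar is the group median. Prox1 is lower in all 7 B16F10 libraries than in any B16F0 library, and Lyve1 lies at 1.97 CPM or less in every lane 6 library.

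Prox1, the transcription factor that sets lymphatic identity, was the only member whose 2 tumour lines did not overlap. It was measured at a lowest, median and highest level of 7.18, 7.74 and 8.82 CPM in B16F10 libraries, against 16.1, 9.01, 9.98, 11.4 and 11.6 CPM in B16F0 replicates 1 to 5. Every B16F10 library was below every B16F0 library, as for 1.46% of the 13534 genes tested. The B16F10 mean was 7.83 ± 0.618 CPM and the B16F0 mean 11.6 ± 2.73 CPM (SD, n = 7 and 5). The log2 fold change was -0.59 ± 0.15 (SE), and within lanes 1, 2 and 6 the log2 difference was -0.33, -0.89 and -0.62. With an adjusted p of 0.0510 in edgeR's quasi-likelihood test, Prox1 narrowly missed the false discovery rate of 0.05 over all genes. It passed under 4 of 26 alternatives and missed under 22. The 4 were RLE scaling (adjusted p = 0.0496), DESeq2 (0.00651), limma-voom (0.0454) and edgeR with the blood endothelial score as a covariate (0.0439). Among the misses, the adjusted p in edgeR was 0.508 with libraries blocked by replicate number, a fit with few residual degrees of freedom. It was 0.329 without lane 2 and 0.201 with the background reads described for Reln as a covariate. It was 0.135 without the lane and 0.126 with library size scaling. Prox1 also missed the threshold with each single library left out (adjusted p in edgeR 0.0589 to 0.211). The log2 fold change was below 0 under all 26 alternatives, between -0.66 and -0.48. The authors' deposited table gives a log2 fold change of -0.60 and a false discovery rate of 0.193 for Prox1. Prox1 lies on the minus strand at chr1:190118035-190170714 (GRCm38), and 133 of its exon bases overlap the antisense gene Prox1os, which the counting may not separate.

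Nr2f2, which holds venous identity, stood higher in B16F10 on average but overlapped between the lines. It was at a lowest, median and highest 26.6, 39.998 and 49.8 CPM in B16F10 libraries, against 28.4, 29.0, 24.9, 35.5 and 34.3 CPM in B16F0 replicates 1 to 5. In B16F10 6 of the 7 libraries were above all 5 of B16F0, and B16F10 replicate 3 lay among them. On the log2 scale the fold change was 0.39 ± 0.13 (SE), with differences of 0.23, 0.46 and 0.45 within lanes 1, 2 and 6, and did not pass (edgeR adjusted p = 0.149). Without B16F10 replicate 3 it was 0.47 and passed (edgeR adjusted p = 0.0467). Nr2f2 lies at chr7:70351944-70366735 on the minus strand, and 643 of its exon bases overlap the opposite-strand transcript B130024G19Rik, which had 152 counts in all libraries together.

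Of the surface and secreted proteins of lymphatic endothelium, Pdpn (podoplanin, a mucin-like membrane protein that also occurs on fibroblasts) had the most counts. It was at a lowest, median and highest 16.6, 22.1 and 38.6 CPM in B16F10 libraries, against 30.3, 38.1, 28.8, 33.5 and 45.8 CPM in B16F0 replicates 1 to 5. The groups overlapped, with 5 B16F10 libraries below all of B16F0. Pdpn had a log2 fold change of -0.45 ± 0.19 (SE; adjusted p = 0.293 in edgeR), and the differences within lanes 1, 2 and 6 were -0.51, -0.50 and -0.46. Pdpn lies at chr4:143267431-143299564 on the minus strand.

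Lyve1, the hyaluronan receptor by which lymphatic capillaries are usually stained and which some tissue macrophages also carry, ranged 60.1-fold between libraries. It was at 4.81, 6.80, 9.08, 8.65, 1.97, 0.789 and 0.910 CPM in B16F10 replicates 1 to 7, against 4.62, 47.4, 8.95, 1.80 and 1.05 CPM in B16F0 replicates 1 to 5. One library, B16F0 replicate 2, was far above the rest, and the lines overlapped. Its log2 fold change, -0.73 ± 0.47 (SE), did not pass (adjusted p = 0.523 in edgeR) and moved to -0.05 without that library (edgeR adjusted p = 0.977). Lyve1 lies at chr7:110850607-110863239 on the minus strand.

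Lyve1 differed with the sequencing lane, a comparison chosen after the values were seen. The 5 lane 6 libraries lay between 0.789 and 1.97 CPM, against 4.62 to 47.4 CPM in the 7 libraries of lanes 1 and 2, with no overlap. Such a full separation was found for 2.21% of tested genes. With the tumour line in the fit, lane 6 over lanes 1 and 2 gave a log2 fold change of -2.91 ± 0.49 (SE; adjusted p = 0.0116 in edgeR), where 3.51% of tested genes were called lower and 4.54% higher. It was -2.42 without B16F0 replicate 2 (edgeR adjusted p = 0.0202), and it held without each single library except B16F0 replicate 5 (-2.75, edgeR adjusted p = 0.0553). Mmrn1 had a log2 fold change of -1.84 ± 0.56 (SE) on lane 6 and missed the threshold (edgeR adjusted p = 0.0593). No other tested member passed. Of 13 tested macrophage genes 6 were lower on lane 6 and 0 higher, namely Adgre1, Mrc1, Cd163, C1qa, C1qc and Lyz2, with a median log2 fold change of -1.38 over the list against -0.03 over all tested genes. Mrc1, the mannose receptor of macrophages and of some lymphatic endothelium, was at 10.996 to 24.3 CPM on lane 6, against 31.7 to 123 CPM on lanes 1 and 2. The whole macrophage list summed to 56.3 to 141 CPM on lane 6, against 141 to 304 CPM on lanes 1 and 2. Timd4, a marker of resident macrophages, had too few counts to be tested. It was at 0 to 0.152 CPM on lane 6, against 0 to 2.40 CPM on lanes 1 and 2. Macrophage genes were not alone in this. The mean log2 CPM of the fibroblast list was 2.13 to 4.06 on lane 6, against 3.66 to 6.10 on lanes 1 and 2. For the list of pericytes and smooth muscle it was 2.99 to 3.90, against 3.24 to 5.50. The melanocytic list lay at 9.30 to 9.77 on lane 6, against 9.06 to 10.17. These lists were not tested by lane. The part of macrophage or other cells in the Lyve1 difference was not tested. Lane cannot be told apart from any other step that the lane 6 libraries had in common. Those libraries also share the name form without a prefix.

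Mmrn1, which encodes the secreted glycoprotein multimerin 1 of platelets and endothelium and marks lymphatic cells, followed Lyve1 in its highest library. It was at a lowest, median and highest 0.641, 2.37 and 4.33 CPM in B16F10 libraries, against 1.40, 15.2, 4.01, 0.620 and 1.89 CPM in B16F0 replicates 1 to 5. The lines overlapped, with B16F0 replicate 2 alone above 4.33 CPM. Between the lines the log2 difference was -0.54 ± 0.58 (SE; adjusted p = 0.736 in edgeR) and turned to 0.05 without that library. Of the tested platelet genes, Pf4, Itga2b and Gp1ba, 0 of 3 were called between the lines. Itga2b, the platelet integrin, was also highest in B16F0 replicate 2, at 7.26 CPM against at most 4.90 CPM elsewhere, while Pf4 was at 3.21 CPM there against at most 6.90 CPM and Gp1ba at 0.847 CPM against at most 2.50 CPM. Their part in the Mmrn1 level was not tested.

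Reln, the secreted glycoprotein reelin that lymphatic endothelium also makes, had the fewest reads per length. It was at a lowest, median and highest 0.986, 2.84 and 10.4 CPM in B16F10 libraries, against 2.01, 4.23, 0.767, 0.169 and 2.10 CPM in B16F0 replicates 1 to 5. B16F10 replicate 1 was the highest and the lines overlapped. That library and B16F10 replicate 2, both on lane 2, also had the most reads on 1501 olfactory, vomeronasal and taste receptor genes, at 945 and 771 CPM. All other libraries had 10.6 to 233 CPM on them. Its fold change of 0.64 ± 0.67 on the log2 scale (SE; adjusted p = 0.726 in edgeR) turned to -0.13 with these background reads as a covariate, and the differences within lanes 1, 2 and 6 were 0.098, 1.67 and 1.10. The Reln gene spans chr5:21884454-22344702 on the minus strand, and 246 of its exon bases overlap the antisense gene Gm10475.

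Lrg1, a secreted glycoprotein of venules that is also made by liver cells and neutrophils, was counted 241 times in all. It was at 0.802, 1.00, 1.33, 3.08, 5.91, 0.197 and 0.228 CPM in B16F10 replicates 1 to 7, against 0.870, 4.72, 1.88, 0.282 and 0.210 CPM in B16F0 replicates 1 to 5. The highest values were in B16F10 replicate 5, B16F0 replicate 2, B16F10 replicate 4 and B16F0 replicate 3, and the lines overlapped. Lrg1 had a log2 fold change of 0.74 ± 0.93 (SE; adjusted p = 0.781 in edgeR), and it was -0.33 without B16F10 replicate 5.

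Bmx, a tyrosine kinase known as a marker of arterial endothelium, was at the edge of detection. Its counts were 8, 11, 2, 5, 6, 2 and 1 in B16F10 replicates 1 to 7, against 2, 6, 5, 2 and 6 in B16F0 replicates 1 to 5. These 56 counts were too few for the filter on low counts, so Bmx was not tested and 7 of the 8 members were. The highest levels, 1.28 and 1.10 CPM, were in B16F10 replicates 1 and 2, the pair with the most background reads noted for Reln. Whether those reads contribute to Bmx was not tested.

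Taken over the 7 tested members, 0 were called higher and 0 lower in B16F10, where 1.3% of all tested genes were called higher and 1.47% lower, 2.77% together. At an unadjusted p under 0.05 in edgeR the members were Prox1 and Pdpn (lower, as 7.71% of all tested genes) and Nr2f2 (higher, as 7.13%). DESeq2 and limma-voom called 1 member each, Prox1, where they called 3.3% and 1.5% of all genes lower. The median log2 fold change of the tested members was -0.45, against 0.02 for all tested genes. Of 23 tested genes of a wider lymphatic list, 1 was called higher and 0 lower, and their median was 0.13. The called gene was Nrp2, a co-receptor for Vegfc that is also a venous marker. It was at 436 ± 46.1 CPM in B16F10 and 217 ± 50.7 CPM in B16F0 libraries (SD, n = 7 and 5; log2 fold change 1.00 ± 0.18 SE, adjusted p = 0.00834 in edgeR). Nrp2 was the 1 called gene among 11 tested venous genes as well, and 0 of 18 tested arterial genes were called.

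**Figure D2:**
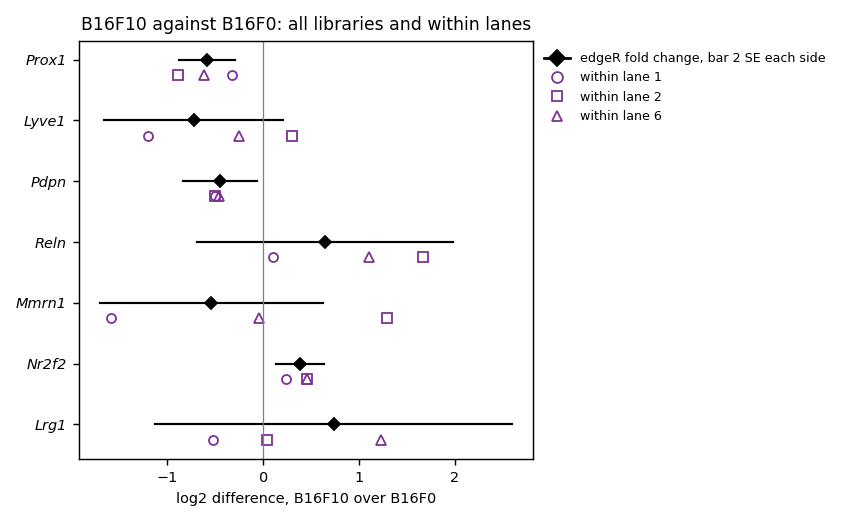
Log2 difference of B16F10 over B16F0 for the 7 tested members. Diamonds are the edgeR fold change with a bar of 2 standard errors on each side, and open symbols are the differences of mean log2 CPM within lanes 1, 2 and 6. Prox1 and Pdpn lie left of 0 in all 3 lanes and Nr2f2 and Reln right of 0 in all 3, while Lyve1, Mmrn1 and Lrg1 change side between lanes.

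Whether the members vary with blood endothelial content was asked with the slope of each gene on the blood endothelial score, with lane and tumour line in the fit. A slope of 1 means that a gene changes by the same factor as the mean of Cdh5 and Pecam1. Of all genes tested, 4.08% rose with the score and 0.266% fell. Of the 7 tested members 0 rose and 1, Pdpn, fell. The median slope of the members was -0.11, against -0.00 for all tested genes. Without the 3 libraries of highest score edgeR called 0 genes rising and 0 falling, so no slope call stands without those libraries.

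Pdpn had a slope of -0.30 ± 0.07 (SE; edgeR adjusted p = 0.0340). In the 3 libraries of highest score it was at 16.6 and 21.4 CPM in B16F10 replicates 4 and 5 and at 28.8 CPM in B16F0 replicate 3, and at 38.6 and 45.8 CPM in the lowest of each line, B16F10 replicate 7 and B16F0 replicate 5. The slope was below 0 under all 27 alternatives, but 9 of the 12 fits without 1 library lost the call, those without B16F10 replicates 2 to 7 or B16F0 replicates 2, 3 or 5 (edgeR adjusted p 0.0510 to 0.176). Without the 3 libraries of highest score the slope was -0.51 and the adjusted p 0.944 in edgeR, and with the name prefix in place of the lane they were -0.33 and 0.0984. Pdpn also rose with the score of the melanocytic list (slope 0.85 ± 0.23 SE, edgeR adjusted p = 0.0164), as did 13.6% of tested genes. Of the 10 tested melanocytic genes 0 rose with the blood endothelial score and 1 fell, with a median slope of -0.24 over the list. The 1 that fell was Tyrp1, a melanin enzyme (slope -0.47 ± 0.11 SE, edgeR adjusted p = 0.0295). The part of tumour-cell RNA in the Pdpn slope was not tested.

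The 2 transcription factors were nearly flat. Prox1 had a slope of 0.02 ± 0.08 (SE; edgeR adjusted p = 0.894), between -0.14 and 0.19 at 2 standard errors. Nr2f2 had a slope of 0.05 ± 0.07 (SE; edgeR adjusted p = 0.690), between -0.08 and 0.19. Both ranges end below the slopes of all 18 pan-endothelial genes given further on, the least of which was 0.45.

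The scarcer members had slopes too uncertain to place. Lyve1 had a slope of -0.29 ± 0.25, Mmrn1 of -0.39 ± 0.28 and Reln of -0.11 ± 0.36 (SE; edgeR adjusted p 0.559, 0.477 and 0.885). The Lyve1 slope was 0.17 without B16F0 replicate 2. Lrg1 had the steepest slope, 0.88 ± 0.43 (SE), and did not pass (edgeR adjusted p = 0.297). Single libraries moved it in opposite ways: it was 1.30 without B16F0 replicate 2 and then passed (edgeR adjusted p = 0.0407), and -0.08 without B16F10 replicate 5. B16F10 replicate 5 also had the largest share of Rn45s. With the name prefix in place of the lane the Lrg1 slope was 2.31 and passed (edgeR adjusted p = 0.00335), and those of Lyve1, Mmrn1 and Reln turned to 0.64, 0.16 and 0.46 without passing. The slopes of the 7 members were not shown to differ between the tumour lines: edgeR called 0 of the members and 0 of all genes for an interaction of line and score, with 0 members and 159 genes at an unadjusted p under 0.05, and DESeq2 called 1 gene.

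**Figure D3:**
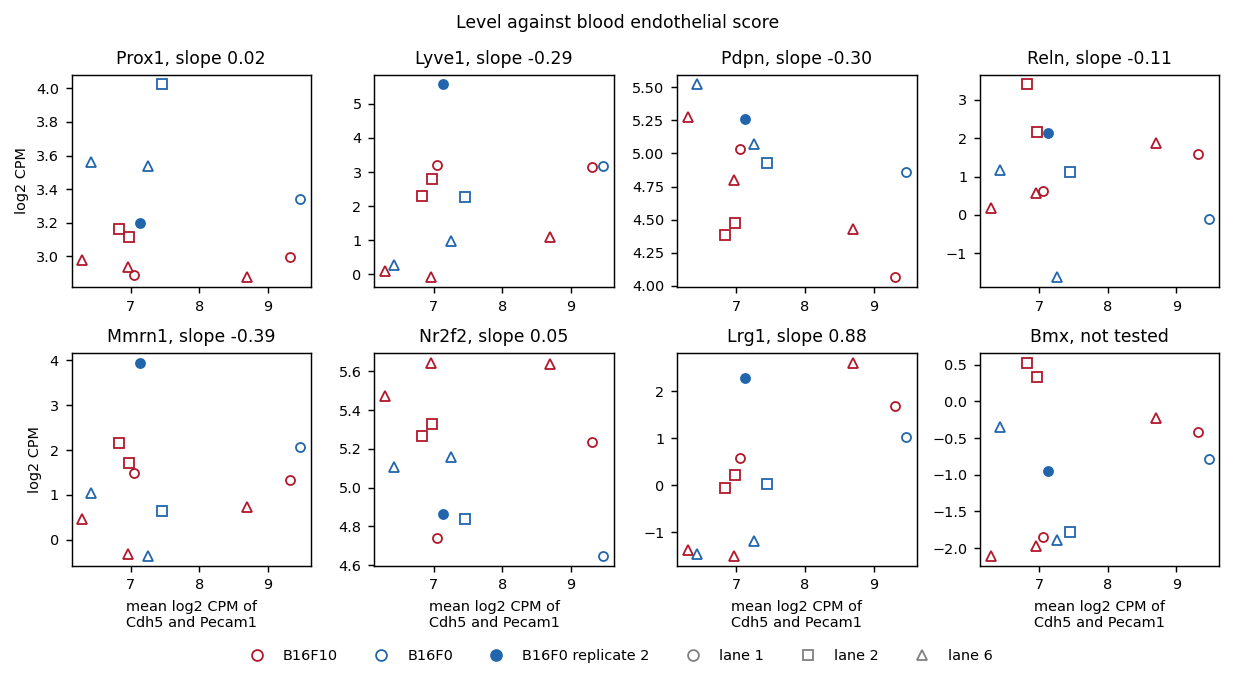
Log2 CPM of each member against the blood endothelial score, the mean log2 CPM of Cdh5 and Pecam1, in 12 libraries (red B16F10, blue B16F0, symbols by lane). Within each line Pdpn is lower in the libraries of highest score than in the library of lowest score, Prox1 and Nr2f2 do not follow it, and B16F0 replicate 2 (filled) stands above all others for Lyve1 and Mmrn1 at a score of 7.13.

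Some other genes of the lymphatic programme did follow the score, though none was called without the 3 libraries of highest score. Of the 23 tested genes of the wider lymphatic list 10 rose with it and 0 fell, with a median slope of 0.51. Flt4, the receptor for Vegfc, had a slope of 0.85 ± 0.07, Stab1, a scavenger receptor, of 0.77 ± 0.07, and Sox18, the factor upstream of Prox1, of 0.95 ± 0.12 (SE; edgeR adjusted p 6.1e-05, 8.5e-05 and 0.000631). Klhl4, Angpt2, Fat4, Gata2, Nfatc1 and Hhex were also among those that rose, most of which blood endothelium expresses too. Those of the list not called included Stab2 (-0.15 ± 0.52), Fgl2 (-0.22 ± 0.28) and Ackr4 (0.25 ± 0.28, SE). Flt4 was at 27.6 to 233 CPM over the 12 libraries, highest in the same 3 libraries as Cdh5. Ccl21a, a chemokine of lymphatic vessels, had 0 counts in all libraries, but its near-identical copies make that uncertain. Foxc2, of lymphatic valves, had too few counts to be tested.

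Venous and arterial genes rose with the score as well, again with none called without the 3 libraries of highest score. Of 11 tested venous genes 6 rose and 0 fell (median slope 0.80), among them Aplnr, the apelin receptor (1.32 ± 0.12), Emcn, endomucin of veins and capillaries (0.80 ± 0.09), and Ephb4, the receptor that marks veins (0.48 ± 0.08; edgeR adjusted p 8.5e-05, 0.000182 and 0.00417). Of 18 tested arterial genes 14 rose and 0 fell (median 0.73). They included the ephrin Efnb2 (0.82 ± 0.09), the Notch ligand Dll4 (0.99 ± 0.11) and the receptor Notch4 (1.17 ± 0.16; edgeR adjusted p 0.000173, 0.000196 and 0.000654). All 18 pan-endothelial genes other than the 2 of the score rose (median 0.93), Eng least at 0.45. Of 11 genes of pericytes and smooth muscle, the cells that wrap vessels, 3 rose and 0 fell (median 0.10): Mcam (0.61 ± 0.07), Abcc9 (0.62 ± 0.12) and Kcnj8 (0.65 ± 0.15; SE, adjusted p 0.000265, 0.00964 and 0.0280 in edgeR). Of other cell types 1 of 13 macrophage genes rose, and 0 of 11 fibroblast genes did, with Fbln1 falling. Flt4, Nrp2, Sox18 and Emcn each sit in more than 1 list. Differences in slope between lists were not tested.

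**Figure D4:**
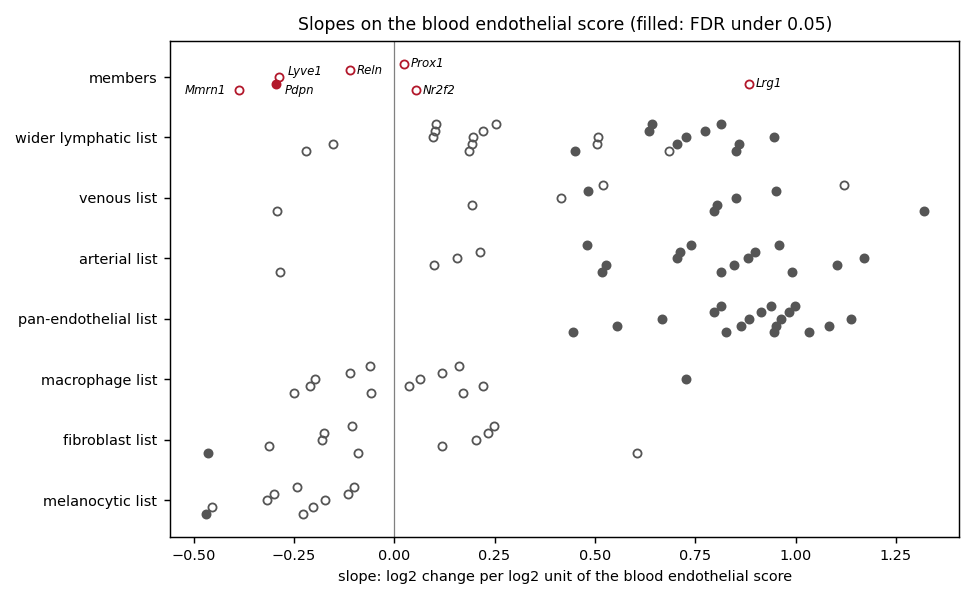
Slope of each tested gene on the blood endothelial score (log2 change per log2 unit of score), by list, with filled points for genes called by edgeR at a false discovery rate of 0.05. The venous, arterial and pan-endothelial genes lie mostly right of 0, with medians of 0.80, 0.73 and 0.93, while all tested members other than Lrg1 lie at or below the 0.05 of Nr2f2.

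Scores of other cells were put in place of the endothelial one. No member and none of all tested genes was called on the macrophage score, on which Lyve1 had a slope of 0.72 ± 0.56 (SE; edgeR adjusted p = 0.584). The steepest member slope on it was that of Lrg1, 2.28 ± 0.78 (SE; edgeR adjusted p = 0.420). On the fibroblast score 0.104% of genes rose, 0.00739% fell and no member passed. The Pdpn slope there was -0.00 ± 0.16 (SE; edgeR adjusted p = 0.994), and that of Mmrn1 was 0.92 ± 0.36 (SE; edgeR adjusted p = 0.358). Slopes of Reln and Lrg1 on it were 0.92 ± 0.41 and 1.24 ± 0.64 (SE; edgeR adjusted p 0.401 and 0.465).

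B16F0 replicate 2 stood apart for a small set of genes, a comparison chosen after the values were seen and given without a test. Of 13078 genes that averaged 1 CPM or more, 1306 were highest in this library, and they were ordered by their ratio to the next highest library. The first 3 were Lyve1 (47.4 CPM there, against at most 9.08 CPM in the other 11 libraries), Stab2 (18.4 against at most 4.86 CPM) and Mmrn1 (15.2 against at most 4.33 CPM). Their ratios to the next library were 5.22, 3.78 and 3.52. Stab2 is a hyaluronan receptor of liver sinusoids and lymphatic endothelium. The fourth gene, Cyp4b1, had a ratio of 2.36, so by this ratio the 3 stand clear of the others. By the ratio to the median of the other 11 libraries they do not. There the second highest of all tested genes was at 16.5, above Stab2 at 12.5, Lyve1 at 10.3 and Mmrn1 at 8.08. The ranking is given for this library only.

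Prox1 in B16F0 replicate 2 was 1.06 times the median of the other 11 libraries, Pdpn 1.32 times, Flt4 1.48 times and Reln 2.11 times. Lrg1 was 5.42 times the median of the others but below B16F10 replicate 5. Nr2f2 was 0.771 times, Cdh5 0.898 times and Pecam1 1.24 times. Of the 7 tested members 2 were highest in this library, and of the 23 wider lymphatic genes 1, Stab2, where 9.75% of all tested genes were. Of those 23, 3 were over 2 times the median of the other libraries (Stab2, Ackr2 at 4.88 times and Klhl4 at 2.19 times), as were 5.94% of all tested genes, and the median ratio was 1.13 for the list and 0.997 for all tested genes. Ackr2 is a chemokine scavenger of lymphatic endothelium. Others of the 23 were lower in this library than in any of the other 11. They were Nrp2 at 0.362 times the median, Maf at 0.572, Emilin1 at 0.577, Itga9 at 0.785 and Vegfc at 0.814 times. Ccbe1 was at 0.170 times.

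**Figure D5:**
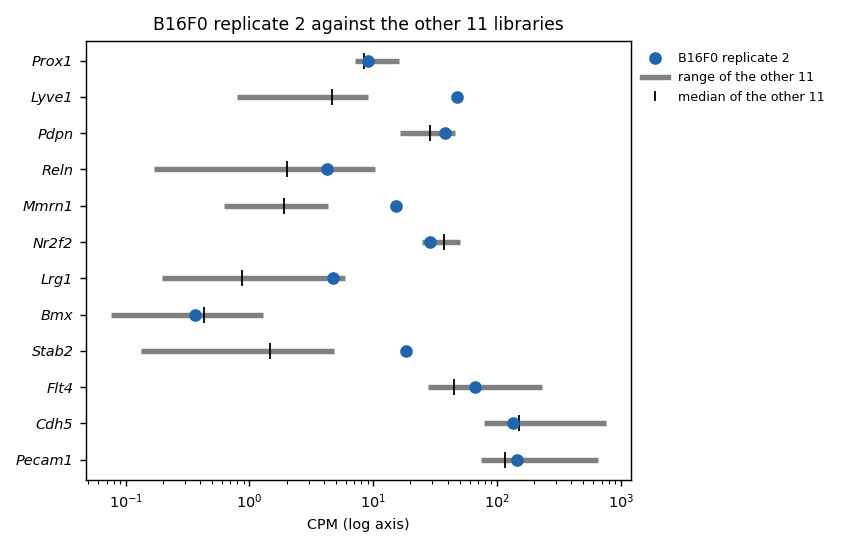
CPM (log axis) of the members, Stab2, Flt4, Cdh5 and Pecam1 in B16F0 replicate 2 (blue point), with the range (grey bar) and median (tick) of the other 11 libraries. Lyve1, Mmrn1 and Stab2 lie right of the bar at 47.4, 15.2 and 18.4 CPM, and all other genes shown lie within it.

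The genes most like each member over the 12 libraries, once lane and line means were removed, were mostly not vessel genes. They were ranked by Pearson correlation of log2 CPM among about 10125 candidates that averaged at least 5 CPM, so scarcer vessel genes could not be listed. With so many candidates and 12 libraries that share lanes and depth the values are a description. For Prox1 they were Fnbp1l (0.93), Ano6 (0.90) and Trip11 (0.90), and for Nr2f2 D1Ertd622e (0.87), Prrg4 (0.84) and Chd3os (0.82). For Pdpn they were Ppil4 (0.95), Oca2 (0.94) and Gja3 (0.93), where Oca2 is a melanosome gene and itself lower in B16F10 tumours (log2 fold change -1.10 ± 0.17 SE, edgeR adjusted p = 0.00379). For Lyve1 they were Polg (0.84), Fam65b (0.84) and Metrnl (0.83), and for Mmrn1 Obsl1 (0.93), Prpf38b (0.92) and Nop2 (0.91). For Reln they were Bcl2l1 (0.89), Dact3 (0.89) and Rab17 (0.89), and for Lrg1 Cxxc1 (0.95), Abhd17a (0.93) and Clu (0.92). The 2 lymphatic genes with a shared high library, Lyve1 and Mmrn1, had no gene in common among these 3. Stab2 and Mmrn1 itself averaged below 5 CPM and were not candidates, so this does not show that the 2 genes vary apart.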

How the data were processed

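Ribosome-bound mRNA was isolated by precipitation of the tag and made into libraries with a ScriptSeq kit, per the labels. For each of 12 libraries, the file the authors deposited gives raw whole-number counts by gene symbol. The submitters' processing notes name cutadapt 1.16, STAR 2.2.1, featureCounts 1.6.0, edgeR, R 3.3.2 and the build mm10; the sources used here give no settings, strand or annotation. The authors' deposited comparison table (log2 fold changes and false discovery rates with a decimal comma, read as a decimal point) holds 14108 genes, of which 21 names match no counted gene. Normalized values were also deposited, without readable decimal marks, and were left aside.

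Groups came from the labels and lanes from the library names. Genes passing filterByExpr of edgeR 4.0.16 (minimum count 10) numbered 13534 and were TMM-scaled. The quasi-likelihood F test in R 4.3.3 had lane and line as factors, with Benjamini-Hochberg adjustment at 0.05; standard errors are the estimate divided by the square root of F. The biological coefficient of variation was 0.318. Slopes added the score (log2 CPM with a prior count of 2) to that fit, and left out Cdh5 and Pecam1. The tests were tried on simulated counts. Alternatives used DESeq2 1.42.0, limma 3.58.1, other scalings, filters and scores, and each library left out. Chosen after seeing the data were 4: leaving out the 2 libraries richest in Rn45s, leaving out lane 2, background reads as a covariate, and the name prefix in place of the lane. The lane 6 comparison was also added then.

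The members and gene lists were chosen with earlier results of these data known. Named genes are the 8 members, Cdh5, Pecam1, up to 4 called genes of each list and test by smallest p, and the 3 genes most correlated with each member of at least 1 CPM; others are named after their values were seen, and some list genes are not reported here by name. Gene positions are from GENCODE M21 on GRCm38, the same build as mm10. All pairs of libraries within a group differed by more than sampling noise (the closest pair had a chi-square of 7.07 per degree of freedom). Lowly counted members are limited most by depth in B16F10 replicate 1, the shallowest library.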

Additional observations from a re-analysis of the deposited data

Results flagged for a closer look

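Within a line, single libraries stood apart from their group by Dixon's gap-over-range test in 5 of the 20 groups of values examined (10 genes in 2 lines). The test would flag about 1 in 20 groups of independent, normally distributed values. These groups hold CPM values from the same libraries, so the count cannot be set against chance. Lyve1 in B16F0 replicate 2 was at 47.4 CPM, with the next library of its group at 8.95 CPM. Mmrn1 in the same library was at 15.2 CPM, with the next at 4.01 CPM. Reln in B16F10 replicate 1 was at 10.4 CPM, with the next at 4.30 CPM. In B16F0 replicate 3 both genes of the blood endothelial score were far above their group, Cdh5 at 764 CPM with the next at 206 CPM, and Pecam1 at 656 CPM with the next at 149 CPM. Prox1, Pdpn, Nr2f2, Lrg1 and Bmx had no such library in either line.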

How the results depend on the processing

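Of 655 values recomputed under 30 settings, 534 kept direction and side of the threshold or, for counts of genes, stayed within 1.5 times, and the cause of each change was not tested. Genes called lower in B16F10 numbered 131 without the lane and 132 with library size scaling. Genes called higher and lower were 407 and 445 with DESeq2, 111 and 125 without the 2 Rn45s-rich libraries, 96 and 81 without lane 2, and 325 and 305 with the name prefix in place of the lane. The member Prox1 was called lower under RLE scaling, DESeq2, limma-voom and the score as a covariate (1 each). Without single libraries the calls ran from 104 to 199 higher and 99 to 247 lower, and members from 0 to 1 higher (Nr2f2 without B16F10 replicate 3).

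Genes rising with the score were 0 without the 3 libraries of highest score and 891 without lane 2. Falling genes were 3 without the lane, 106 with library size scaling, 16 without the filter, 207 with DESeq2, 0 without the 3 libraries, 475 without the Rn45s-rich ones, 368 without lane 2 and 142 with the name prefix. The falling member, Pdpn, was lost (0) without the lane, the filter or the 3 libraries and with the name prefix, under which 1 member, Lrg1, rose. Without single libraries rising genes ran from 315 to 1089, falling genes from 3 to 768, rising members from 0 to 1 (Lrg1 without B16F0 replicate 2) and falling members from 0 to 1. The score difference ran from -0.41 to 0.36.

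Directions turned as follows. The Prox1 slope was -0.044 without the lane, -0.0036 with library size scaling and -0.065 with the name prefix, and -0.019 to 0.063 without single libraries. The Nr2f2 slope was -0.048 without the lane and -0.0080 to 0.11 without single libraries. The Lyve1 slope was 0.15 without the lane, 0.64 with the name prefix and -0.58 to 0.17 without single libraries. The Reln slope was 0.051 without lane 2, 0.46 with the name prefix and -0.60 to 0.20 without single libraries, and its fold change -0.13 with background reads as a covariate. The Mmrn1 slope was 0.16 with the name prefix, and its fold change ran from -1.08 to 0.051 without single libraries. The Lrg1 fold change was -0.33 with limma-voom, -0.62 without the 3 libraries, -0.41 without the Rn45s-rich ones and -0.33 to 1.205 without single libraries. The Lrg1 slope was -0.39, -0.11 and -0.080 to 1.41 in the last 3 of these.

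Replicate numbers did not pair the libraries: deviations of same-numbered libraries correlated at -0.27, -0.27, -0.24, -0.29 and 0.32 for numbers 1 to 5, and 0 of the B16F0 libraries matched best with its own number. With the replicate block in place of the lane, 30 genes were called higher and 28 lower, 47 rose and 0 fell with the score, 0 members fell, and 1 member and 3030 genes differed in slope between lines, in a fit with few residual degrees of freedom. In that block fit the slopes were -0.029 for Prox1, 0.43 for Lyve1, 0.23 for Reln and 0.25 for Mmrn1, and the log2 fold changes 0.096 for Lyve1 and 0.034 for Mmrn1. Low counts limit the values of Bmx, Lrg1, Reln and Mmrn1 most.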
